A study of Gasterosteus aculeatus with 34 samples.

Results

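The response of the male stickleback forebrain to a territorial challenge was examined in 9 males, 5 whose final trial was a challenge and 4 whose final trial was the control. Each male gave a telencephalon and a diencephalon library, so that 18 of the 34 libraries of the series belong to this comparison; they were chosen by the treatment and region in their titles. The fish were raised in the laboratory from parents caught in the wild and belonged to the white ecotype of the threespine stickleback, Gasterosteus aculeatus, their age not being given in the labels. In the challenge, a rival male in breeding colour was held in a flask in the focal male's tank, and in the control both flasks were empty. Every male of either group had met all 4 treatments, rivals and gravid females included, over 8 trials, so the groups differ in the last trial and not in whether a rival had ever been seen. Brain tissue was taken 60 minutes after that trial. The other 16 libraries come from 4 males given a rival and a gravid female together (the tradeoff) and 4 males given a gravid female alone (courtship).

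Breeding male sticklebacks hold a territory around a nest and drive off rivals. The telencephalon of a fish holds the pallium and the subpallium, which take part in learning and social evaluation, and the diencephalon holds the thalamus and the hypothalamus, which governs pituitary hormones and drives such as aggression and reproduction. RNA sampled about an hour after an encounter can catch early transcriptional responses. The files give gene identifiers without names, and 0 of 22295 identifiers matched the reference table at hand, so genes are described by identifier and no role can be given for them. For the same reason the region labels and the cellular makeup could not be checked against marker genes.

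Telencephalon libraries held 24505411 to 31751131 gene counts in challenge males and 22802875 to 30799674 in control males. Diencephalon libraries held 16522465 to 27610007 gene counts in challenge males and 17676221 to 25149326 in control males. Of 14 technical measures (7 per region, such as depth, read shares and the share of chrY models), the number of gene models detected in the telencephalon came nearest to a difference, at 19640 ± 66.9 in challenge males and 19790 ± 155 in control males (SD, n = 5 and 4; exact permutation test, two-sided, p = 0.111, Benjamini-Hochberg adjusted p = 1). Some libraries stood apart. The average diencephalon library was set at 0 and the average telencephalon library at 1. On that scale the telencephalon library of control male 304 lay at 0.472 and its diencephalon library at 0.137. In the telencephalon challenge males 322 and 298 came next, at 0.773 and 0.796. The other challenge males lay at 1.12 to 1.15 and the other control males at 0.913 to 1.14. Whether tissue of both regions was present in the samples of males 304, 322 and 298 was not tested. The region-enriched folds, with or without male 304, and the negative differences between regions are to be read with that limit. The telencephalon libraries of challenge male 298 and control males 304 and 308 held 990.6, 683.5 and 1308 CPM (read counts scaled to library size) of ENSGACG00000009153, against 0.0363 to 8.33 CPM in the other 6 males. High values were not particular to these males. Telencephalon libraries of the other treatments ran from 0 CPM in courtship male 320 to 1278 CPM in tradeoff male 321. In the diencephalon of challenge and control males the gene ran from 523.7 CPM in male 298 to 3051 CPM in male 308, except in challenge male 322, at 0.553 CPM. Several results are given with and without males 298, 304 and 308, grouped by ENSGACG00000009153 after seeing the data. In ENSGACG00000007902 and ENSGACG00000018030, described below, control males 304 and 308 held the high telencephalon values and challenge male 298 did not. A fold near 0 there follows from leaving out the high values, and few control males then remain.

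In the telencephalon, no gene differed between challenge and control males in edgeR after correction for multiple testing. Of 18277 genes tested, 0 passed an adjusted p of 0.05 in edgeR's quasi-likelihood test (0%), and the lowest adjusted p was 1 after rounding. At an unadjusted p under 0.05 there were 486 genes (2.66%), of which 232 were higher (1.27%) and 254 lower (1.39%) after the challenge. Where no gene differs, this threshold admits a share of about 0.05 of all genes, and 2.66% lies below it. DESeq2 called 1 of 21264 genes and limma voom 0 of 18277. The measurements were fairly tight: among the 16442 genes averaging 1 CPM or more, 73.2% had a 95% interval within 1.5-fold of no change and 90% one within 2-fold. In such bulk tissue, fewer cells of a type and less RNA per cell cannot be told apart.

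Among those 16442 genes, ENSGACG00000004416 had the lowest unadjusted p of those higher after the challenge. It stood at 16.9, 18.9, 19.9, 17.7 and 23 CPM in challenge males 298, 317, 318, 322 and 330, against 15.5, 11, 15.4 and 11.7 CPM in control males 303, 304, 307 and 308. Every challenge male was above every control male. The log2 fold was 0.53 (SE 0.11, 95% interval 0.29 to 0.76; unadjusted p = 0.000213, edgeR adjusted p = 1). Without males 298, 304 and 308 that fold was 0.365. In the diencephalon the groups overlapped, at 22.9 to 27.9 CPM after challenge and 19.5 to 24.5 CPM in controls.

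ENSGACG00000012891 was the next of the higher genes. Challenge males had 4.38, 7.59, 4.52, 4.45 and 6.18 CPM, against 2.88, 3.27, 3.01 and 2.36 CPM in control males, again with no overlap. The log2 fold was 0.91 (SE 0.22; unadjusted p = 0.000537, edgeR adjusted p = 1), which is nearly a doubling. In the diencephalon the gene was at 1.85 ± 0.159 CPM after challenge and 1.91 ± 0.553 CPM in controls (SD, n = 5 and 4), a log2 fold of -0.05 (SE 0.22).

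The 2 lower genes named here had widely spread controls. ENSGACG00000007902 was at 0.162, 0.292, 0.472, 1.04 and 0.145 CPM in challenge males and at 0.698, 11.5, 0.364 and 7.39 CPM in control males. Control males 304 and 308 alone were high, and the other 2 controls lay within the range of the challenge males. The mean of 1 CPM asked of named genes was reached only through males 304 and 308, so the minimum favoured this spread. The log2 fold of -3.55 (SE 0.8; unadjusted p = 0.000376) was the single telencephalon call of DESeq2 (adjusted p = 0.0339), while edgeR's adjusted p was 1. The log2 fold was -2.73 without male 304 and -0.12 without males 298, 304 and 308. In the diencephalon the same gene was abundant in every male, at 17.4 to 28 CPM after challenge and 18.8 to 24.3 CPM in controls.

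ENSGACG00000007230 was uniform after the challenge, with 4.58, 4.38, 4.79, 4.49 and 4.83 CPM, and variable in controls, with 4.71, 10.4, 8.21 and 15.7 CPM. Control male 303 lay within the challenge males and the other controls lay above them. The log2 fold was -1.08 (SE 0.25; unadjusted p = 0.000466, edgeR adjusted p = 1) and -0.49 without males 298, 304 and 308. Courtship males had 5.29 to 7.24 CPM and tradeoff males 2.69 to 5.03 CPM. Their levels did not enter this fold, but their spread entered the p that chose the gene.

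**Figure D1:**
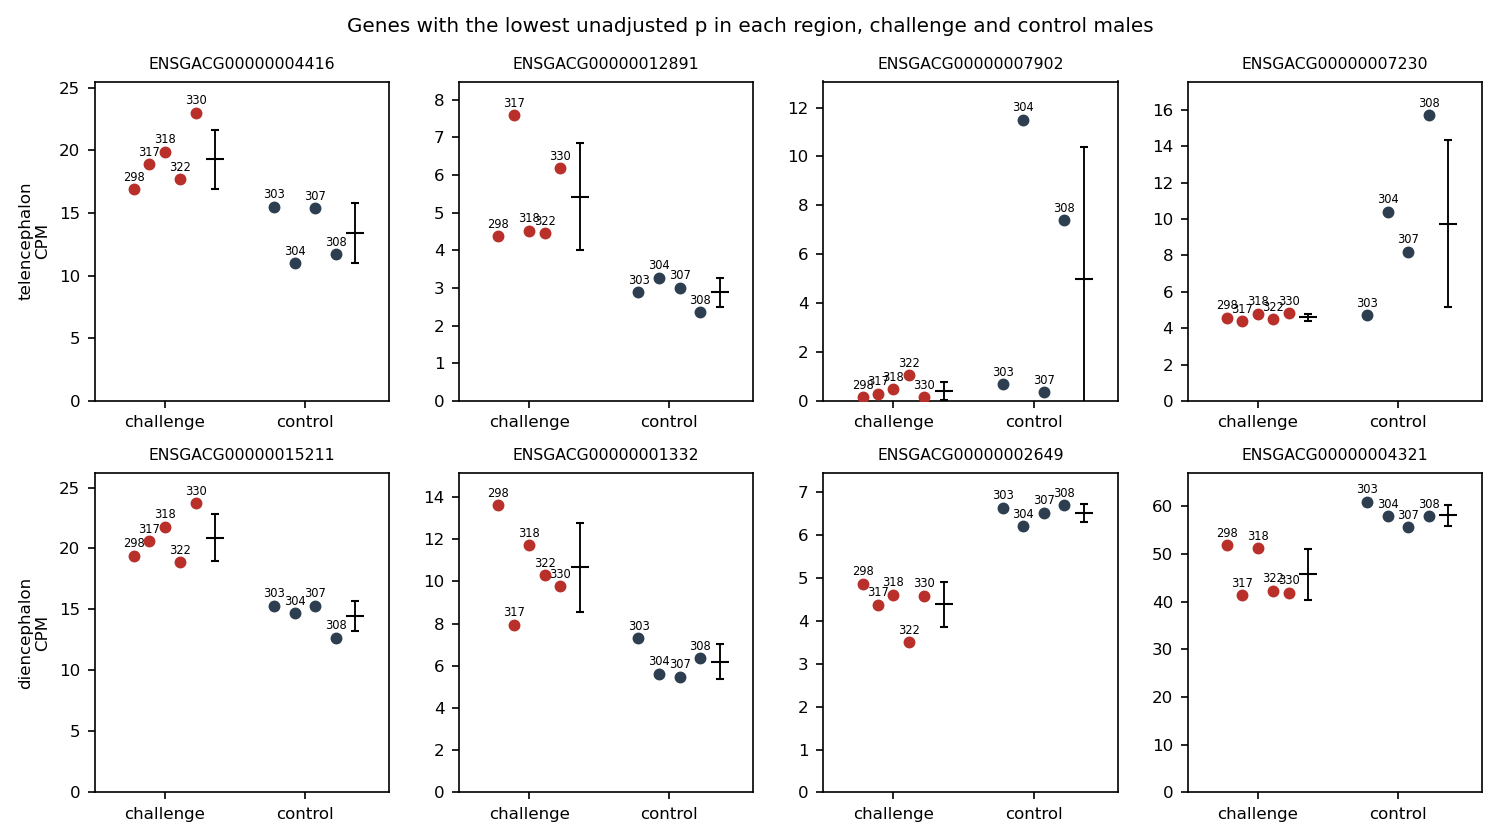
CPM (linear axes from 0) of the genes with the lowest unadjusted p in the telencephalon (top) and the diencephalon (bottom), the left pair of each row being higher and the right pair lower after challenge; points are males with their numbers, challenge left and control right, and bars are means ± SD, the lower bar of the control group of ENSGACG00000007902 being cut at 0. The groups are apart in the left pairs and in both lower diencephalon genes, whereas in ENSGACG00000007902 control males 304 and 308 hold 11.5 and 7.39 CPM and every other male at most 1.04 CPM.

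In the diencephalon no gene passed the correction either. The genes named for the lowest p had modest folds without overlap between the groups, and choice by p favours such groups. Of 18399 genes tested, 0 passed an adjusted p of 0.05 in edgeR (0%) and in limma voom, and 0 of 21389 passed in DESeq2. Without adjustment, edgeR gave 481 genes (2.61%) a p under 0.05, 247 of them higher (1.34%) and 234 lower (1.27%) after the challenge. This share, too, lies below the 0.05 that the threshold admits where no gene differs. Intervals were narrower than in the telencephalon: among the 17028 genes averaging 1 CPM or more, 82% had one within 1.5-fold of no change and 94.5% one within 2-fold. The median SE of the log2 fold of such genes was 0.11, against 0.13 in the telencephalon.

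ENSGACG00000002649 had the lowest unadjusted p of the diencephalon. It stood at 4.87, 4.38, 4.61, 3.5 and 4.59 CPM in challenge males 298, 317, 318, 322 and 330, against 6.64, 6.21, 6.53 and 6.7 CPM in control males 303, 304, 307 and 308. Every challenge male was below every control male. The log2 fold was -0.57 (SE 0.12, 95% interval -0.81 to -0.32; unadjusted p = 0.000113, edgeR adjusted p = 1), and it stayed between -0.61 and -0.5 with any 1 of the 9 males left out.

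ENSGACG00000004321, the other gene named among those lower, had 51.8, 41.4, 51.2, 42.3 and 41.9 CPM in challenge males, against 61, 57.9, 55.6 and 57.9 CPM in control males. The groups did not overlap (log2 fold -0.34, SE 0.08; unadjusted p = 0.000291, edgeR adjusted p = 1). The telencephalon gave the same direction, with 35.9 ± 5.18 CPM after challenge and 44.1 ± 4.02 CPM in controls (SD, n = 5 and 4; log2 fold -0.3, SE 0.1), where challenge male 322, at 43.5 CPM, overlapped the controls.

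Of the higher genes, ENSGACG00000015211 had 19.4, 20.6, 21.8, 18.9 and 23.7 CPM in challenge males, against 15.3, 14.7, 15.3 and 12.7 CPM in control males (log2 fold 0.52, SE 0.12; unadjusted p = 0.000258, edgeR adjusted p = 1). ENSGACG00000001332 had 13.6, 7.95, 11.7, 10.3 and 9.78 CPM in challenge males, against 7.3, 5.63, 5.48 and 6.35 CPM in control males (log2 fold 0.79, SE 0.18; unadjusted p = 0.000346, edgeR adjusted p = 1). In each of these genes every challenge male was above every control male. In the telencephalon both overlapped between the groups, with log2 folds of 0.46 (SE 0.21) and 0.53 (SE 0.32).

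Genes whose groups were fully apart were rare in either region. In the telencephalon 58 genes (0.317%) were higher in every challenge male than in every control male and 60 (0.328%) lower, and in the diencephalon 60 (0.326%) were higher and 59 (0.321%) lower. The males can be split into groups of 5 and 4 in 126 ways, of which 1 per direction sets a gene's groups fully apart. Each of these shares lies below 1 in 126, the share that equally likely splits would give. Full separation in a named gene is therefore given as a description. In both regions at once, 2 genes (0.0111%) were higher and 0 lower. These were ENSGACG00000006374 and ENSGACG00000010433, the second of which was chosen after its values were seen. ENSGACG00000010433 stood at 33.6 to 37 CPM after challenge and 27.5 to 33.6 CPM in controls in the telencephalon, where challenge male 330 and control male 303 differed only past the third digit. In the diencephalon it stood at 34.3 to 36.8 CPM after challenge and 29.2 to 32.1 CPM in controls. Its log2 folds were 0.19 (SE 0.09) and 0.2 (SE 0.08).

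Fold changes were then compared between the regions of the same males. Over 17959 genes tested in both regions, the log2 folds correlated weakly (Pearson r = 0.25, Spearman rho = 0.269), and 59.9% of genes had the same sign. The folds of a gene share their males in both regions, and the deviations of a male from its group correlated between its regions by 0.346 on average over genes, so the correlation describes males as well as treatments. Of genes that reached an unadjusted p under 0.05 in the telencephalon, 360 of 478 had the same sign in the diencephalon (75.3%), and of those in the diencephalon 335 of 460 had the same sign in the telencephalon (72.8%). The correlation ran from 0.131 without control male 307 to 0.383 without control male 303.

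An unadjusted p under 0.05 in both regions with the same direction was found in 64 genes, 38 higher (0.212% of those tested in both) and 26 lower (0.145%) after the challenge. The higher genes had small differences, with a median log2 fold of 0.48 in the telencephalon (0.25 to 1.06) and 0.41 in the diencephalon (0.15 to 0.9), and were of moderate abundance (medians of 19.9 and 21.9 CPM). The lower genes had medians of -0.75 and -0.7 and reached -3.9 in the telencephalon and -3.08 in the diencephalon. They were less abundant, with medians of 6.87 and 7.82 CPM, and the scarcest averaged 0.131 and 0.141 CPM. Of the 64 genes, 63 were Ensembl genes, 1 another gene model and 0 chrY models. These sets lost many members when a male was left out: 11 of the 38 and 13 of the 26 again met the rule without control male 304, and 12 and 11 without control male 308, while 30 and 20 did so without challenge male 298.

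The higher genes that came nearest to the threshold in both regions at once showed small differences, and choice by p favours groups with little overlap. ENSGACG00000004560 had 37.4, 32.9, 27.7, 29.6 and 31.1 CPM in the telencephalon of challenge males, against 23.4, 27.9, 27.9 and 24.3 CPM in control males (log2 fold 0.29, SE 0.09; unadjusted p = 0.00359, edgeR adjusted p = 1). In the diencephalon it had 36.1, 31.9, 35, 40.2 and 35.4 CPM after challenge, against 29.6, 28.9, 29.9 and 31.3 CPM in controls (log2 fold 0.25, SE 0.08; unadjusted p = 0.00449, edgeR adjusted p = 1). Only challenge male 318 overlapped the controls, and only in the telencephalon.

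ENSGACG00000006374 had 22.6, 22.2, 20.2, 22 and 20.8 CPM in the telencephalon of challenge males, against 17.4, 17, 15 and 18.3 CPM in control males (log2 fold 0.35, SE 0.09; unadjusted p = 0.00144, edgeR adjusted p = 1). In the diencephalon it had 21.9, 26.3, 22.7, 25.7 and 22.7 CPM after challenge, against 21, 20.4, 20.6 and 18.7 CPM in controls (log2 fold 0.24, SE 0.08; unadjusted p = 0.00875, edgeR adjusted p = 1). The groups were apart in both regions, by a margin in the diencephalon that was smaller than the spread within the challenge group.

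Among lower genes, ENSGACG00000017870 came first by this rule and had wide gaps between males. All challenge males were low in the telencephalon, with 0.162, 0.195, 0.169, 0.803 and 0.4 CPM, while control males had 0.785, 5.64, 4.21 and 0.558 CPM. In the diencephalon challenge males had 0.468, 0.97, 0.796, 0.737 and 0.706 CPM and control males 1.21, 8.08, 6.49 and 0.859 CPM. Control males 304 and 307 were high in both regions and control males 303 and 308 low in both, so the log2 folds of -3.02 (SE 0.89) and -2.51 (SE 0.7) come from 2 males; their edgeR adjusted p was 1 in each region. In each region the mean of 1 CPM asked of named genes was reached only through males 304 and 307. Without control male 304 the log2 folds were -2.43 in the telencephalon and -1.98 in the diencephalon. ENSGACG00000004321, described above, was the second lower gene by this rule.

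**Figure D2:**
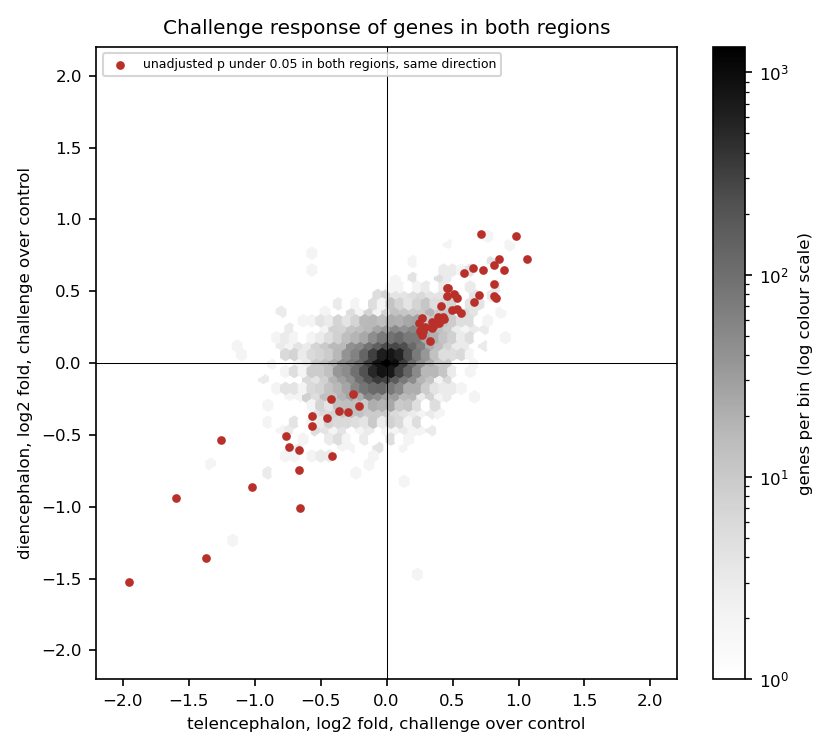
Log2 fold of challenge over control in the telencephalon (x) and the diencephalon (y) for 16237 genes averaging 1 CPM or more in both regions, shaded by genes per bin; 32 further genes lie outside the axes. The cloud is centred near 0 and slightly tilted (r = 0.278 over all 16269 genes), and the red points are 57 of the genes with an unadjusted p under 0.05 and the same direction in both regions.

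Tradeoff and courtship males offer a comparison that shares no library with challenge and control. In the final trial both met a female, and only the tradeoff males met a rival, although courtship males had met rivals in earlier trials. The spread of each gene was estimated over all treatments, so the p of this comparison and of challenge against control are not independent. Tradeoff against courtship gave 697 telencephalon genes (3.81%) and 830 diencephalon genes (4.51%) an unadjusted p under 0.05, and edgeR called 0 in either region. Of the genes named above, ENSGACG00000002649 repeated its pattern there. In the diencephalon it was at 3.94, 4.53, 4.53 and 4.88 CPM in tradeoff males, against 6.21, 5.38, 6.03 and 5.8 CPM in courtship males (log2 fold -0.39, SE 0.12; unadjusted p = 0.00524, edgeR adjusted p = 1 over all genes). Its diencephalon level was thus lower in each of the 9 males whose final trial held a rival (3.5 to 4.88 CPM) than in each of the 8 whose final trial did not (5.38 to 6.7 CPM). It was the only 1 of 18399 diencephalon genes with this separation (0.00544%). That is given as a description, because its challenge and control values were those that singled it out as the lowest p. Equally likely splits of the males into 9 and 8 would give a count of about this size in each direction, and the count was not tested. In the diencephalon 0 genes were separated in the opposite direction, and 0 of 18277 telencephalon genes were separated in either. In the telencephalon ENSGACG00000002649 overlapped between the groups, at 2.6 to 3.44 CPM after challenge and 3.18 to 5.88 CPM in controls.

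ENSGACG00000006374 was also higher in tradeoff than in courtship males, with log2 folds of 0.2 (SE 0.1; unadjusted p = 0.0493) in the telencephalon and 0.18 (SE 0.09; unadjusted p = 0.055) in the diencephalon, and edgeR adjusted p of 0.999 and 1. ENSGACG00000012891 had 3.74 to 5.56 CPM in the telencephalon of tradeoff males and 2.48 to 4.14 CPM in courtship males (log2 fold 0.47, SE 0.22; unadjusted p = 0.0505). Among the lower genes, ENSGACG00000017870 had 0.813 to 6.57 CPM in the diencephalon of tradeoff males, with male 302 alone high, and 6.82 to 8.08 CPM in courtship males (log2 fold -1.74, SE 0.69; unadjusted p = 0.023, edgeR adjusted p = 1). ENSGACG00000007230 had log2 folds of -0.57 (SE 0.27; unadjusted p = 0.0495) in the telencephalon and -0.47 (SE 0.18; unadjusted p = 0.0163) in the diencephalon, with edgeR adjusted p of 0.999 and 1. Other genes had values near 0 or of the opposite sign. ENSGACG00000007902 had a log2 fold of 0.41 (SE 0.85) in the telencephalon, against -3.55 for challenge over control. ENSGACG00000004321 had log2 folds of -0.02 and -0.03 and ENSGACG00000004560 of -0.13 and -0.08 in the telencephalon and the diencephalon. ENSGACG00000004416 had a log2 fold of 0.04 (SE 0.12) in the telencephalon, and ENSGACG00000015211 and ENSGACG00000001332 had -0.06 (SE 0.12) and -0.04 (SE 0.18) in the diencephalon. Over all genes with an unadjusted p under 0.05 for challenge against control, 258 of 486 had the same sign for tradeoff against courtship in the telencephalon (53.1%, against 51.7% of all genes tested) and 271 of 481 in the diencephalon (56.3%, against 53.8%).

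The 26 genes lower in both regions after challenge had the same sign for tradeoff against courtship in 19 telencephalon and 21 diencephalon cases. Their median log2 folds were -0.24 and -0.22, and medians over all genes were -0.00232 and 1.06e-05. Of all genes, 49.3% and 50% were higher in tradeoff than in courtship males. At an unadjusted p under 0.05, 5 of the 26 had the same sign and 1 the opposite sign in the telencephalon. For the diencephalon these counts were 3 and 2. The 38 higher genes had the same sign in 21 and 23 cases, with medians of 0.06 and 0.04. At that threshold 2 and 3 had the same sign, and 1 and 0 the opposite sign. Both regions come from the same males, so their counts are not independent. By library, the median shift of the 26 lower genes in the diencephalon was -0.617 to -0.239 on the log2 scale in challenge males and 0.0301 to 0.277 in controls, which the choice of the genes brings about. The levels of tradeoff and courtship males did not enter the choice, though their spread did. The median shift was -0.269 to 0.0478 after the tradeoff and -0.0098 to 0.125 after courtship, and these ranges overlapped.

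**Figure D3:**
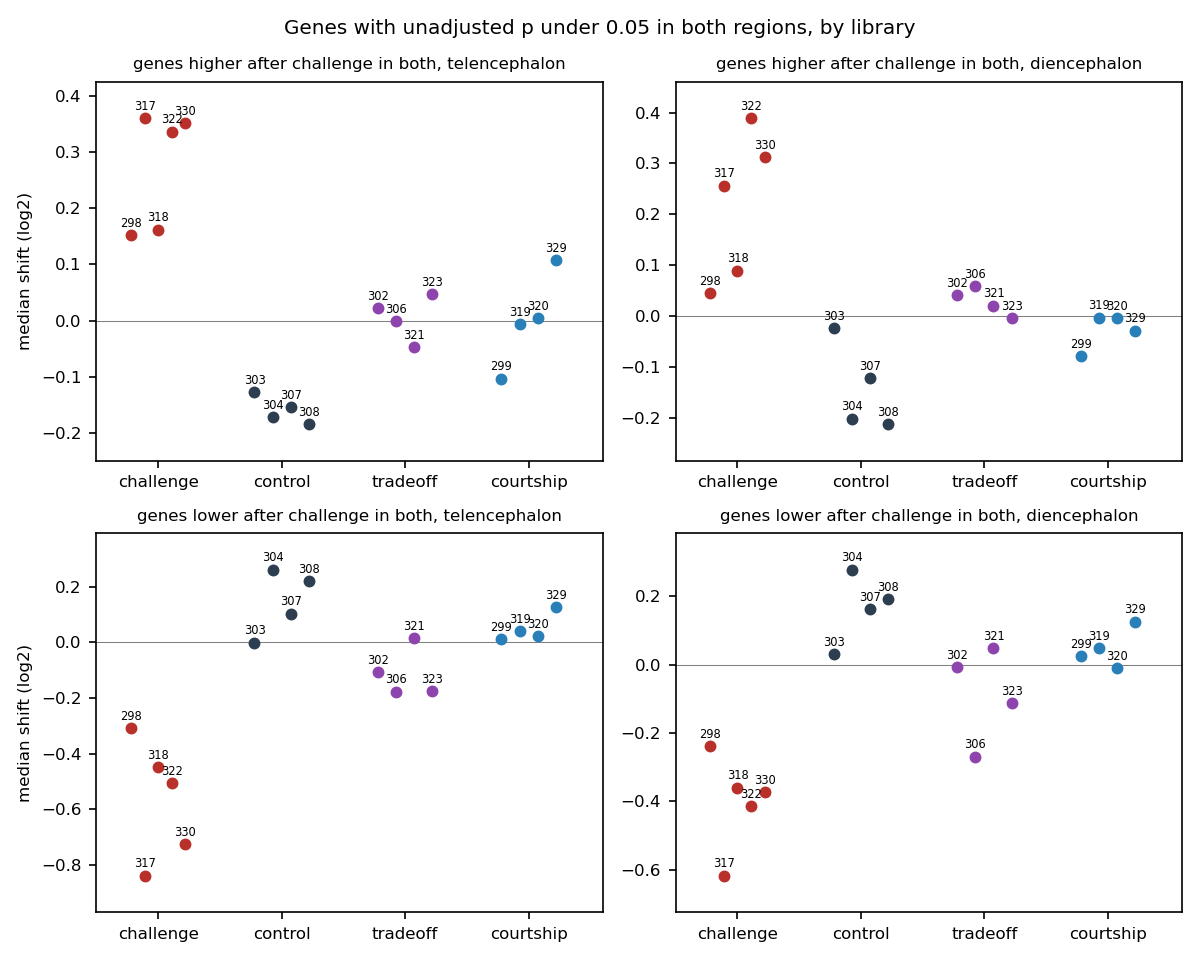
Median shift of the 38 genes higher (top) and the 26 genes lower (bottom) after challenge at an unadjusted p under 0.05 in both regions, per library, as log2 relative to the median of the tradeoff and courtship libraries of that region. Challenge and control males are apart because their levels chose the genes. Tradeoff and courtship males, of which only the spread entered the choice, overlap, at -0.269 to 0.0478 and -0.0098 to 0.125 for the lower genes in the diencephalon.

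**Figure D4:**
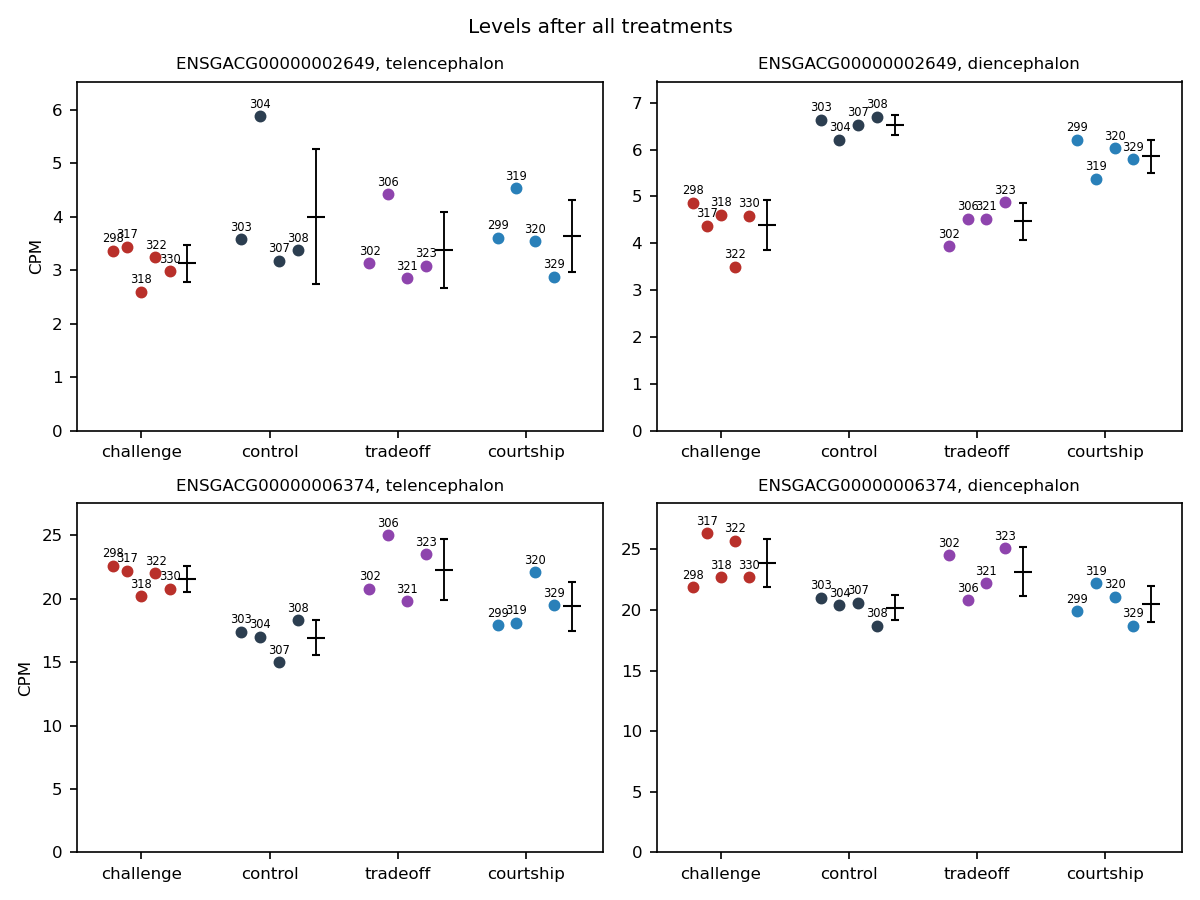
CPM (axes from 0) of ENSGACG00000002649 and ENSGACG00000006374 in every male of the 4 treatments in the telencephalon (left) and the diencephalon (right), with means ± SD. ENSGACG00000002649 in the diencephalon is the case in which challenge and tradeoff males (3.5 to 4.88 CPM) all lie below control and courtship males (5.38 to 6.7 CPM).

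Genes with large fold changes were set against the genes that differ between the regions. In the telencephalon 21 genes of at least 1 CPM were over 2-fold higher (0.128%) and 85 over 2-fold lower (0.517%) after the challenge. Of these, 35 of the 85 and 3 of the 21 belonged to 510 diencephalon-enriched genes. Those were over 4-fold higher in the diencephalon at adjusted p under 0.05 in tradeoff and courtship males, whose levels take no part in the comparison. Of all 18277 genes tested in the telencephalon, at any CPM, 385 were diencephalon-enriched. Of the diencephalon-enriched genes tested in the telencephalon, 37 were lower and 2 higher with an unadjusted p under 0.05 (10.1% of 385, against 2.66% of all genes), 0 passed the adjusted threshold, and their median log2 fold was -0.24, against -0.00235 for all genes. Without control male 304 this turned round: the median was 0.53, and 31 genes were higher and 5 lower at an unadjusted p under 0.05. The count of genes over 2-fold lower was then 72 and that of genes over 2-fold higher 88, of which 7 and 59 were diencephalon-enriched. Of all 18437 genes tested without male 304, at any CPM, 386 were diencephalon-enriched. In the diencephalon 35 genes were over 2-fold higher (0.206%) and 39 over 2-fold lower (0.229%), and 7 of the 39 were telencephalon-enriched. Of all 18399 genes tested there, at any CPM, 162 were telencephalon-enriched. Without control male 304 the diencephalon held 40 genes over 2-fold higher and 41 over 2-fold lower. Telencephalon-enriched genes then made up 1 of the 41, and 166 of all 18490 tested at any CPM.

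The libraries show where this lies. Relative to tradeoff and courtship males, the diencephalon-enriched genes were shifted in the telencephalon by a median of 0.58, -0.18, -0.2, 0.91 and -0.24 on the log2 scale in challenge males 298, 317, 318, 322 and 330. In control males 303, 304, 307 and 308 the shifts were -0.1, 1.86, -0.23 and 0.3. Male 304 was thus far above the rest, and challenge males 322 and 298 came next. In the diencephalon, 191 telencephalon-enriched genes mirrored this: challenge males were shifted by -0.0491 to 0.184, control male 304 by 0.906 and the other 3 controls by -0.035 to 0.0658. Their median log2 fold after challenge was -0.28, with 25 of the 162 tested lower and 0 higher at an unadjusted p under 0.05, and 0.05 without male 304, with 2 lower and 0 higher of 166.

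**Figure D5:**
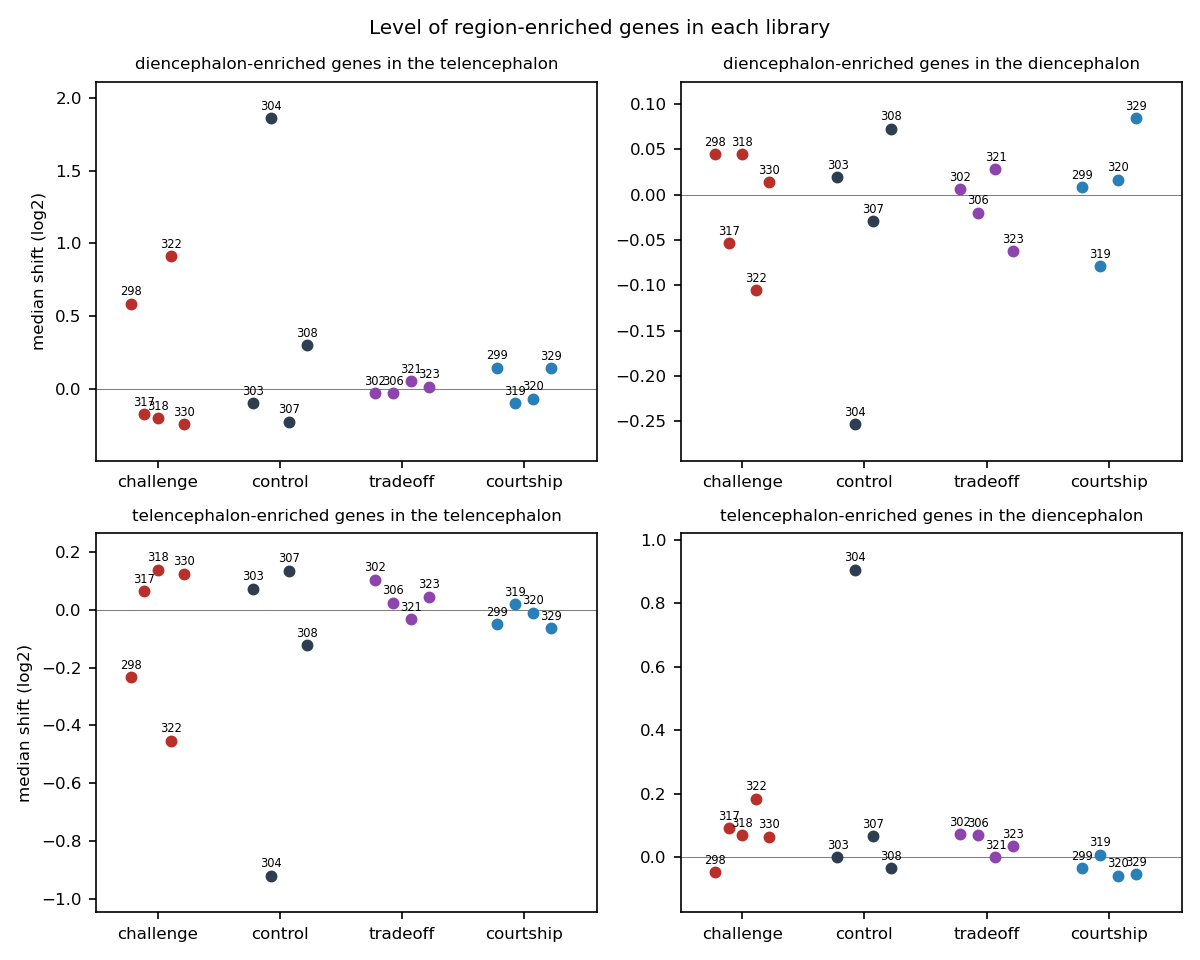
Median shift (log2, relative to tradeoff and courtship libraries of the same region) of 510 diencephalon-enriched genes (top) and 191 telencephalon-enriched genes (bottom) in every library, by treatment and with male numbers. Control male 304 stands at 1.86 in the telencephalon for diencephalon-enriched genes and at 0.906 in the diencephalon for telencephalon-enriched genes.

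Whether the response to a challenge differed between the regions was tested directly as telencephalon response minus diencephalon response. Of 18923 genes, 0 passed in edgeR (0%, lowest adjusted p 0.792). An unadjusted p under 0.05 was found in 327 (1.73%), 107 positive (0.565%) and 220 negative (1.16%). The 1.73% lies below the share of 0.05 that the threshold admits where no gene differs. This edgeR fit had no term for the male, so both libraries of a male entered it as independent. The SE and p of the genes named below come from it. With the male as a block, 0 of 18923 genes passed again and 535 had an unadjusted p under 0.05, 279 positive and 256 negative. The excess of negative genes in the fit without the block was thus not seen with it. Of the 327 genes, 209 were among these 535. DESeq2 called 11 of 21543 genes, all negative, and 10 of them were diencephalon-enriched. Its lowest adjusted p went with log2 differences of -22.2, -22.8 and -26.3, for which edgeR gave -7.54, -8.26 and -14.2. The count in limma voom was 0 of 18923. Without control male 304, 309 of 19034 genes had an unadjusted p under 0.05 in edgeR, 164 positive and 145 negative. Of the 327 genes, 119 were among them.

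The negative genes named by this test were led by the libraries already described. Both were among the DESeq2 calls, ENSGACG00000018030 at a DESeq2 adjusted p of 0.00224 and ENSGACG00000007902 at 0.0223. ENSGACG00000018030 was at 0.69, 0.811, 0.877, 0.762 and 1.09 CPM in the telencephalon of challenge males, against 0.698, 154, 1.09 and 4.4 CPM in control males. In the diencephalon it was at 544, 235, 350, 463 and 389 CPM after challenge and at 411, 212, 318 and 398 CPM in controls. The difference of the responses was -5.78 (SE 1.3; edgeR adjusted p = 0.792). It was -2.64 with the male as a block, -2.85 in limma voom, -1.4 without male 304 and -0.03 without males 298, 304 and 308. For ENSGACG00000007902 the difference was -3.63 (SE 0.78; edgeR adjusted p = 0.792), -3.06 with the male as a block, -2.79 without male 304 and -0.15 without males 298, 304 and 308.

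The positive genes were steadier. ENSGACG00000012456 had 2.72, 1.91, 1.62, 1.77 and 2.36 CPM in the telencephalon of challenge males, against 1.05, 1.44, 1.16 and 1.22 CPM in control males. In the diencephalon it had 2.2, 1.44, 1.76, 1.91 and 2.52 CPM after challenge and 2.53, 2.33, 2.19 and 2.98 CPM in controls. It was thus higher after challenge without overlap in the telencephalon, and overlapping with a lower mean in the diencephalon (difference 1.12, SE 0.33; unadjusted p = 0.00162, edgeR adjusted p = 1). It stayed between 1.03 and 1.24 with any 1 male left out. ENSGACG00000012891 had a difference of 0.97 (SE 0.3; unadjusted p = 0.00291, edgeR adjusted p = 1), its telencephalon and diencephalon values being those given above.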

How the data were processed

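Per the labels' protocols, stranded mRNA libraries were sequenced by the authors on a NovaSeq. STAR and HTSeq are named in the submitters' processing notes; for versions, genome build, annotation and strand setting, the entry is "not given in the sources used here". Each deposited table lists raw counts of reads by gene model. Its 5 summary rows entered neither library sizes nor tests; unassigned no-feature reads made 38.19% and 38.28% of challenge and control telencephalon libraries and 35.05% and 35.42% of diencephalon libraries.

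Tests used edgeR 4.0.16 in R 4.3.3 (TMM factors, filterByExpr, robust quasi-likelihood F test, Benjamini-Hochberg adjustment at 0.05 over all genes tested). Each region was fitted with its 17 libraries, and the difference between regions with all 34, without a term for the male. CPM values use the factors of the region's own fit. SE is the log2 fold over the square root of F. Per-library shifts use log2 of CPM plus 0.1. Alternatives used DESeq2 1.42.0 and limma 3.58.1. The pipeline was tested on simulated data. Pairs of libraries of a group differed beyond sampling noise (chi-square per degree of freedom of 17.53 to 101.7 over 32 pairs).

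Named genes have a mean of at least 1 CPM and the lowest unadjusted p, 2 per direction, in each region, in both regions together (by the larger p) and for the difference between regions. Lists defined by gene symbols could not be matched and were not tested. Members and lists were chosen with earlier results of these data known; the region-enriched and shared lists were added after seeing the data. The regions of a male come from the same animal, so male numbers pair the libraries: own-male correlations of deviations from group means were 0.0985 (male 304) to 0.528, and for 7 of 9 males the telencephalon library was closest to the male's own diencephalon library. Intervals do not make counts without molecular identifiers independent molecules.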

Additional observations from a re-analysis of the deposited data

Results flagged for a closer look

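A search for single libraries distant from their group covered 92 sets of 4 or 5 values (named genes, region-enriched lists, technical measures) and found 4; chance alone gives about 1 in 20 sets. Challenge male 330 had 3.27 CPM of ENSGACG00000001332 in the telencephalon, the other challenge males 7.59 to 8.3 CPM. Control male 304 accounted for the other 3 values. It had 5.88 CPM of ENSGACG00000002649 in the telencephalon (3.18 to 3.58 CPM in the other controls), 154 CPM of ENSGACG00000018030 in the telencephalon (0.698 to 4.4 CPM), and a median log2 shift of 0.906 of telencephalon-enriched genes in the diencephalon (-0.035 to 0.0658).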

How the results depend on the processing

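Neither region gave a call in edgeR under any alternative run: RLE factors, no low-count filter, no robust moderation, the compared libraries alone, each of 9 males left out, and, added after seeing the data, males 298, 304 and 308 left out together. DESeq2 called 1 telencephalon gene and 11 genes for the difference between regions; leaving out 1 male gave 0 to 1 genes there, the 1 being ENSGACG00000007902 without control male 307 (adjusted p = 0.0294). With the male as a replicate block the difference between regions gave 0 genes, both over all libraries and over the compared ones, and its genes with an unadjusted p under 0.05 numbered 535 over all libraries, against 327 without the block, and 338 over the compared libraries, against 222 without it. With 1 male left out, genes at an unadjusted p under 0.05 ranged from 364 to 871 in the telencephalon (2% to 4.77% of genes tested). The 871 came without challenge male 298, and 783 came without control male 303. In the diencephalon they ranged from 392 to 892 (2.13% to 4.81%), the 892 coming without control male 303. Of the original genes, 53.1% to 73.7% and 45.7% to 73.2% were among them. Genes whose groups were apart, 118 of 18277 and 119 of 18399, numbered 185 to 424 and 211 to 472 of the same genes with 1 male left out. Fewer males overlap less, and equally likely splits would then also set more genes apart, so the rise alone shows no stronger difference. The correlation between regions was 0.0779 without the filter. Median folds of the region-enriched lists changed sign without male 304: diencephalon-enriched genes ranged from -0.664 to 0.526 in the telencephalon and from -0.0236 to 0.067 in the diencephalon, and telencephalon-enriched genes from -0.0749 to 0.205 and from -0.369 to 0.0469, with 1 male left out. Without the 3 males the same medians were 0.586, -0.042, -0.111 and 0.046. Without male 304 the chrY share in the telencephalon differed by 0.0175 points and detected genes in the diencephalon by 18, both reversed in sign (adjusted p = 0.923 each). Within a region no paired analysis was possible because challenge and control males are different fish. Precision was lowest for genes of 1 to 10 CPM, whose median SE was 0.26 in the telencephalon and 0.21 in the diencephalon, against 0.09 and 0.08 at 100 CPM or more; the shares of counting error and of variation between males in it were not tested.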

Other observations

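Gene models that are not Ensembl genes were counted apart. On the Y chromosome, which only males carry, 1 of 444 models tested was higher and 4 lower in the telencephalon with an unadjusted p under 0.05 (1.13%, against 2.66% of all genes), and 3 of 440 were higher and 2 lower in the diencephalon (1.14%, against 2.61%). Their median log2 folds were -0.0197 and -0.00318. The share of gene counts on chrY models was 1.476% ± 0.0456 in challenge males and 1.483% ± 0.0596 in control males for the telencephalon. For the diencephalon it was 1.292% ± 0.0505 in challenge males and 1.292% ± 0.0693 in control males (SD, n = 5 and 4). Among other models, 2 of 302 were higher and 5 lower in the telencephalon (2.32%, against 2.66% of all genes), and 8 of 298 were higher and 3 lower in the diencephalon (3.69%, against 2.61%).

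An unadjusted p under 0.05 in both regions with opposite directions was found in 2 genes (0.0111%), named because their values had been seen. ENSGACG00000013663 had 2.52 ± 0.0981 CPM after challenge and 4.33 ± 1.71 CPM in controls in the telencephalon, and 8.33 ± 1.16 CPM after challenge and 6.52 ± 0.714 CPM in controls in the diencephalon (SD, n = 5 and 4). A gene model on chrIX, maker-chrIX-exonerate_protein2genome-gene-19.5, had 15.2 ± 1.63 CPM after challenge and 19.1 ± 3.08 CPM in controls in the telencephalon, and 40.1 ± 3.53 CPM after challenge and 35.9 ± 2.29 CPM in controls in the diencephalon. Both had an edgeR adjusted p of 1 in each region. Control male 304 held the highest telencephalon value of ENSGACG00000013663 (6.74 CPM, the other controls 2.72 to 4.11 CPM) and its lowest diencephalon value (5.51 CPM). The highest telencephalon value of the chrIX model, 22.1 CPM, was also that of male 304.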
